A study of Mus musculus with 6 samples.

Results

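The cytosolic ribosomal protein genes are the nuclear genes for the proteins of the ribosome that translates cytoplasmic messenger RNA. They were chosen by name, as gene symbols made of Rpl or Rps and a number, together with Rplp0, Rplp1, Rplp2, Rpsa and Fau. Ribosomal S6 kinases and pseudogenes were left out. The rule found 84 genes of the 22564 in the table, after 3 of the 87 matching symbols (Rps3a2, Rps3a3 and Rps4y2, which the annotation names Rps4l) were left out as pseudogenes. In all, 28 genes marked as pseudogenes by their symbol or by the annotation were left out, these 3 among them. Rpl36al, which also encodes a ribosomal protein, does not match the name pattern. Of the 84 genes, 80 reached a mean of 1 FPKM (fragments scaled by transcript length and by library depth, a level per unit of transcript length) and were tested. Rpl13 was one of these 80 and gets no fold change, for the reason given with its values, which leaves 79.

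The cells were EOMA, a mouse haemangioendothelioma line that serves as a model of infantile haemangioma. The control group, called DMSO here, was given the solvent dimethyl sulfoxide for 24 h and holds 3 libraries. The other group, called DHTS here, was given 2 µM of 15,16-dihydrotanshinone I, a tanshinone of the root of Salvia miltiorrhiza, for 24 h and also holds 3 libraries. Both groups grew in the same serum-containing medium at 21% oxygen and 5% CO2, and the labels name no genetic change in either. The comparison asks which transcripts differ in level between cells given the compound and cells given its solvent. Nothing in the labels ties the 3 libraries of a group to separate cultures. The p-values therefore reflect how far these particular libraries vary, and that variation may be technical.

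The libraries held between 9343157 and 12255244 estimated fragments. Over all tested genes the correlation of log2 levels was 0.986 to 0.989 within a group and 0.929 to 0.932 between groups. Of 15 endothelial marker genes, 4 (Esam, Egfl7, Cd34 and Ets1) reached a mean of 1 FPKM, and Tie1, Emcn, Fli1 and Icam2 were listed at 0 in all 6 libraries. The summed level of the endothelial list was 146.5 to 150.1 FPKM with DMSO and 186.0 to 210.3 FPKM with DHTS, and 9 of its genes were listed at 0 in every DMSO library. Of 10 epithelial markers, 6 reached 1 FPKM, with a summed level of 215.3 to 219.5 FPKM with DMSO and 256.8 to 265.8 FPKM with DHTS; 2 of them were listed at 0 in every DMSO library. Within that list Krt18 was higher with DHTS (134 to 139 against 192 to 201 FPKM), while Epcam (22.78 to 25.05 against 16.74 to 18.03 FPKM) and Elf3 (34.1 to 35.8 against 18.1 to 21.1 FPKM) were lower, all without overlap. The part of these markers in the results was not tested. Levels are relative within bulk RNA, so fewer cells that express a gene and less RNA of it per cell cannot be told apart.

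Each ribosome holds a small subunit, which reads the messenger RNA, and a large subunit, which joins amino acids. Most of their proteins are needed in equal number, and their genes are among the most highly expressed in growing cells. The messenger RNAs typically begin with a C followed by a run of pyrimidines, the terminal oligopyrimidine (TOP) tract, through which the mTOR pathway and LARP1 set their translation and stability. Several ribosomal proteins that are not built into ribosomes, with RPL5 and RPL11 of the 5S ribonucleoprotein best known, bind MDM2 and so release p53 from degradation.

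The start sites of members with such a tract show what the feature looks like in this gene class. They are given as 30 bases, 10 before the annotated start and 20 from it, 5′ to 3′ from RefSeq (GRCm38.p6), with the pyrimidine tract in capitals. The regions are chr19:6057937-6057966 (plus strand) for Fau, chr14:18270967-18270996 (minus) for Rpl15, chr17:27635225-27635254 (minus) for Rps10, chr4:86857348-86857377 (minus) for Rps6, chr7:4792955-4792984 (plus) for Rpl28 and chr11:114668570-114668599 (plus) for Rpl38.
Fau: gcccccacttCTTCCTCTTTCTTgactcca
Rpl15: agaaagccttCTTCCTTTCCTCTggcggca
Rps10: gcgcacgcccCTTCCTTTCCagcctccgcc
Rps6: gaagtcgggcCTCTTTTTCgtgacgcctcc
Rpl28: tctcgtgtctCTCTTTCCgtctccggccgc
Rpl38: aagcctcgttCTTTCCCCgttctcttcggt

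The members with the 3 largest rises and the 2 largest falls are shown beside them, so that their starts can be compared. Like most members with a promoter, they have no such tract at the annotated start base, although Rps27l and Rpl22l1 have one within 20 bases of it. The start base is in capitals. The regions are chr9:66946076-66946105 (plus) for Rps27l, chr7:24884582-24884611 (plus) for Rps19, chr5:65391412-65391441 (minus) for Rpl9, chr3:28805498-28805527 (plus) for Rpl22l1 and chr10:128549149-128549178 (minus) for Rpl41.
Rps27l: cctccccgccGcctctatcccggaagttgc
Rps19: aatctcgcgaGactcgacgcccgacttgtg
Rpl9: gggccctgacGgattacaagaacgtgatga
Rpl22l1: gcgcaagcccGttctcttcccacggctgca
Rpl41: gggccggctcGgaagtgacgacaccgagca

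These are annotated starts, not starts measured in EOMA cells. RefSeq promoters were matched for 64 of the 84 members. A C followed by at least 4 C or T from the start base was found in 14 of the 64 (21.9%) and in 3.0% of 27025 genes with a promoter. With the start allowed to lie within 20 bases, a C followed by at least 7 C or T was found in 31 (48.4%) and in 14.8% of all genes. In the 300-base window, 250 before and 50 after the start, and on both strands, CGGAAG (the core of ETS sites) was found in 42 members (65.6%) against 18.8% of genes. The SP1 core GGGCGG was found in 40 members (62.5%) against 38.2% of genes. The YY1 core ATGGCG was found in 21 members (32.8%) against 10.2%. The letters TATAAA, which bind the general factor TBP, were found in 7 members (10.9%) against 15.7%. The 27025 genes were not limited to those tested in EOMA cells. These shares therefore do not compare the members with other expressed genes. CGGAAG and the pyrimidine tract can overlap other matches, and a match is a description of the letters only.

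The ribosomal protein genes stood among the most abundant transcripts of EOMA cells, and their levels with DHTS differed little from those with DMSO. Of the 100 genes with the highest mean FPKM, 46 were members. The median member level was 949 FPKM with DMSO and 1013 FPKM with DHTS, and 74 of the 79 members had a mean above 100 FPKM. Replicates were tight: the median SD was 3.74% of the mean with DMSO and 2.98% with DHTS.

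Of the 79 members, 35 (44.3%) rose and 8 (10.1%) fell, and 36 did not pass the test (limma on log2(FPKM + 1), two-sided, Benjamini-Hochberg adjusted p under 0.05 over 11416 genes). Over all tested genes 28.2% rose and 21.9% fell, so that 50.1% passed in either direction. The share of members that rose was above that background and the share that fell was below it; the difference was not tested. The members' median log2 fold change was 0.12, with quartiles at −0.03 and 0.18, against a median of 0.03 over all tested genes. The extremes were −0.36 (Rpl22l1) and 0.73 (Rps27l), and 69 of the 79 members lay within 1.2-fold of their DMSO level. Only Rps27l and Rps19 went beyond 1.5-fold.

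The counts moved with the scaling of the libraries. With median-ratio scaling 27 members rose and 11 fell, against 25.3% and 25.7% of all genes, and the members' median was 0.07 against −0.01 over all genes. With quantile normalization 37 rose and 9 fell, against 22.3% and 29.9%, with a median of 0.10 against −0.07. On the second deposited block, which holds scaled fragments with no correction for length, 37 rose and 14 fell, against 33.9% and 28.6%. The levels of the groups did not overlap in 41 members that were higher with DHTS and 10 that were lower, against 33.0% and 26.8% of all tested genes.

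**Figure D1:**
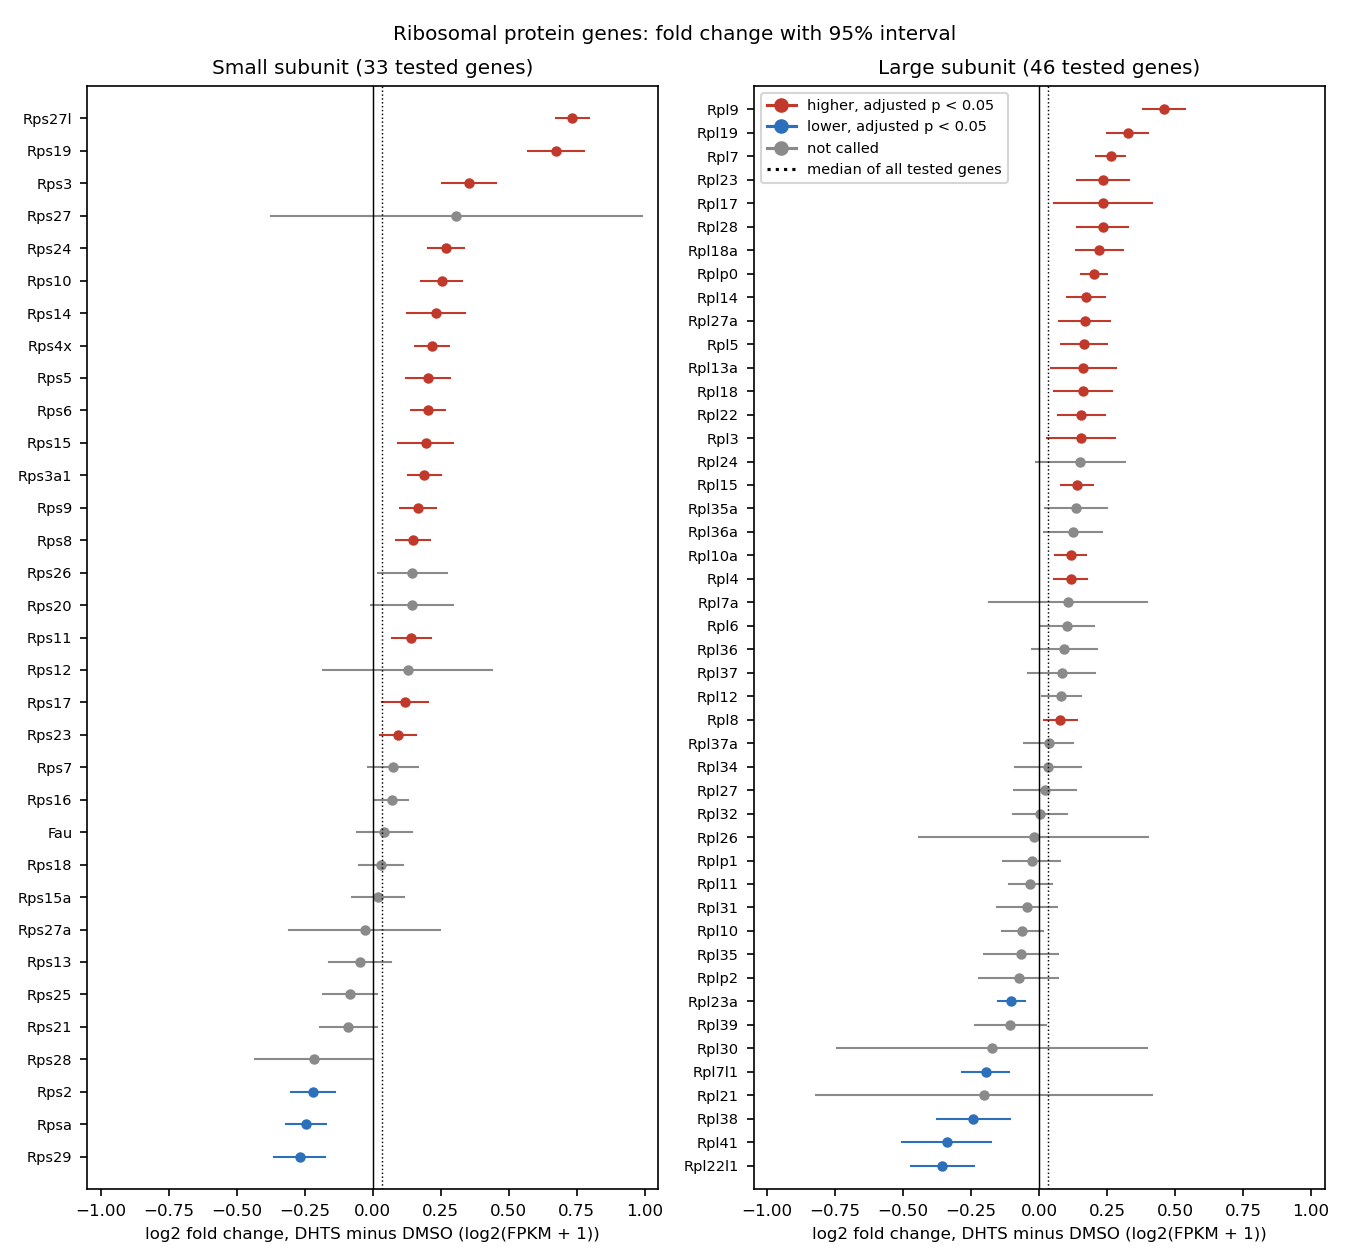
Log2 fold change (DHTS minus DMSO, log2(FPKM + 1)) with its 95% interval for each of the 79 members with a fold change, 33 of the small and 46 of the large subunit; the dotted line is the median of all tested genes (0.03). Most members lie within a narrow band just above 0, with Rps27l (0.73) and Rps19 (0.67) far to the right and Rpl22l1 (−0.36) lowest.

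By subunit, 16 of 33 small-subunit genes rose and 3 fell, with a median log2 fold change of 0.14. Of 46 large-subunit genes, 19 rose and 5 fell, with a median of 0.10. Over all tested genes 28.2% rose and 21.9% fell. The difference between the subunits was not tested. Without the paralogs of canonical genes, 34 of 76 rose and 6 fell, with a median of 0.12.

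Rps27l, the paralog of the small-subunit gene Rps27 and known in human cells as a p53 target, showed the largest rise of all members. Its levels were 543.3, 553.7 and 549.2 FPKM with DMSO and 934.4, 905.9 and 899.3 FPKM with DHTS. The lowest DHTS library was far above the highest DMSO library. The mean went from 549 ± 5.24 to 913 ± 18.7 FPKM (SD, n = 3), a ratio of 1.66 and a log2 fold change of 0.73 (SE 0.03, limma adjusted p = 1.25e-06). The gene lies at mm10 chr9:66946086-66949516 on the plus strand, and the values rest on 1178 to 2148 fragments per library.

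Rps19, which encodes a small-subunit protein and is the gene most often mutated in Diamond-Blackfan anaemia in humans, showed the next largest rise. Its levels were 1248, 1258 and 1144 FPKM with DMSO and 1883, 1937 and 1998 FPKM with DHTS, again with a wide gap between the groups. The mean went from 1217 ± 63.4 to 1939 ± 58.0 FPKM (SD, n = 3), a ratio of 1.59 and a log2 fold change of 0.67 (SE 0.04, limma adjusted p = 2.16e-05). It lies at mm10 chr7:24884371-24889806 on the plus strand, with 2748 to 4852 fragments per library.

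The p53 half-site consensus was searched in the promoter windows because Rps27l and the p53 targets Cdkn1a and Mdm2 rose. It was found in 5 of the 64 members with a promoter (7.8%), a share below that of all genes (9.6%). Counted by promoter window, of which a gene can have several, the order turned. The half-site was in 8 of 76 member windows (10.5%) against 8.36% of all windows. All 5 members with a match were tested: Rps27l and Rps19 rose, and Rpl35a (log2 0.14), Rps21 (−0.09) and Rps27 (0.31) did not pass. Rps27l held 2 matches, at −210 and −107 relative to its second annotated start (position 66946413 of chromosome 9), and Rps19 held 1 match, at −100 relative to an annotated start at position 24884913 of chromosome 7 that is not the one printed above. A match to a half-site describes the letters only, and the part of p53 in these rises was not tested. The matches of Rpl35a, Rps21 and Rps27 are not printed. Those of the genes that rose are printed with the half-site in capitals, all on the plus strand. They come from chr9:66946193-66946222 and chr9:66946296-66946325 for Rps27l and chr7:24884803-24884832 for Rps19.
Rps27l first: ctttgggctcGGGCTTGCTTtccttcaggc
Rps27l second: gggcttgttgAGACTTGTCCgggcgacacg
Rps19: cggcaggcccGGACATGCCTgatcgccgca

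Rpl9, a large-subunit gene, had 822.7, 813.8 and 820.6 FPKM with DMSO and 1154, 1148 and 1078 FPKM with DHTS. The groups were well apart, with means of 819 ± 4.64 and 1127 ± 42.1 FPKM (SD, n = 3), a log2 fold change of 0.46 (SE 0.03, limma adjusted p = 3.18e-05). A close copy of it elsewhere in the genome, Rpl9-ps6, had 252.74, 257.531 and 204.401 FPKM with DMSO and 420.606, 328.758 and 294.237 FPKM with DHTS. How reads were divided between the copy and Rpl9 is not given in the sources used here, so the level of each is uncertain. The copy, too, had all 3 DHTS libraries above all 3 DMSO libraries.

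The next rises were in Rps3, Rpl19 and Rps24. Rps3, whose protein sits at the channel where messenger RNA enters, had 637.0, 597.4 and 569.3 FPKM with DMSO and 766.2, 768.8 and 770.0 FPKM with DHTS, a log2 fold change of 0.35 (SE 0.04, limma adjusted p = 0.000426). Rpl19, of the large subunit, had 1856, 1728 and 1809 FPKM with DMSO and 2239, 2297 and 2222 FPKM with DHTS, a log2 fold change of 0.33 (SE 0.03, limma adjusted p = 0.000168). The groups were apart in both genes, and the 3 DHTS libraries of Rps3 were nearly equal. Rps24, another Diamond-Blackfan anaemia gene, had 1724, 1668 and 1635 FPKM with DMSO and 1998, 2057 and 2006 FPKM with DHTS, a log2 fold change of 0.27 (SE 0.03, limma adjusted p = 0.00021). The other 29 members that rose did so by 0.08 to 0.26 on the log2 scale.

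The largest fall was in Rpl22l1, the paralog of the large-subunit gene Rpl22. Its levels were 410.0, 423.9 and 380.1 FPKM with DMSO and 317.5, 327.3 and 302.9 FPKM with DHTS. The highest DHTS library lay below the lowest DMSO library. The mean went from 405 ± 22.4 to 316 ± 12.3 FPKM (SD, n = 3), a ratio of 0.78 and a log2 fold change of −0.36 (SE 0.05, limma adjusted p = 0.000922).

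Rpl41, which encodes a very short peptide of the large subunit, had 3427, 3413 and 3319 FPKM with DMSO and 2778, 2894 and 2380 FPKM with DHTS. DHTS replicate 3 was the lowest, and the groups did not overlap, with a log2 fold change of −0.34 (SE 0.07, limma adjusted p = 0.00555). Its estimated fragments are fractional, meaning that some were shared with another gene. Rps29, a small-subunit gene mutated in some Diamond-Blackfan anaemia, had 1629, 1622 and 1697 FPKM with DMSO and 1390, 1421 and 1298 FPKM with DHTS, a log2 fold change of −0.27 (SE 0.04, limma adjusted p = 0.0012). All DHTS libraries were below all DMSO libraries here too.

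Rpsa, whose product is both a small-subunit protein and a laminin receptor precursor, had 1405, 1350 and 1351 FPKM with DMSO and 1161, 1186 and 1118 FPKM with DHTS. Its log2 fold change was −0.25 (SE 0.03, limma adjusted p = 0.000605), without overlap. The estimated fragments of Rpsa are fractional, like those of Rpl41. Rpl38, which in mouse embryos is known to be needed for translation of a subset of Hox messenger RNAs, had 1680, 1534 and 1577 FPKM with DMSO and 1353, 1444 and 1258 FPKM with DHTS. It fell by 0.24 on the log2 scale (SE 0.06, limma adjusted p = 0.0103), and its adjusted p was 0.0668 with no filter on low values. Rps2, the third most abundant member, had 4307, 4027 and 4001 FPKM with DMSO and 3448, 3584 and 3561 FPKM with DHTS, a fall of 0.22 (SE 0.03, limma adjusted p = 0.00162).

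Rpsa and Rps2 also have copies listed as pseudogenes. Rpsa-ps10 had 212.456, 209.773 and 197.119 FPKM with DMSO and 177.596, 166.292 and 199.038 FPKM with DHTS. Rps2-ps10 had 273.091, 217.933 and 245.252 FPKM with DMSO and 221.791, 201.142 and 233.445 FPKM with DHTS. The groups overlapped in both copies. The remaining members that fell were Rpl7l1 and Rpl23a, the latter by 0.10 (limma adjusted p = 0.00651), a direction that turned with quantile normalization.

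**Figure D2:**
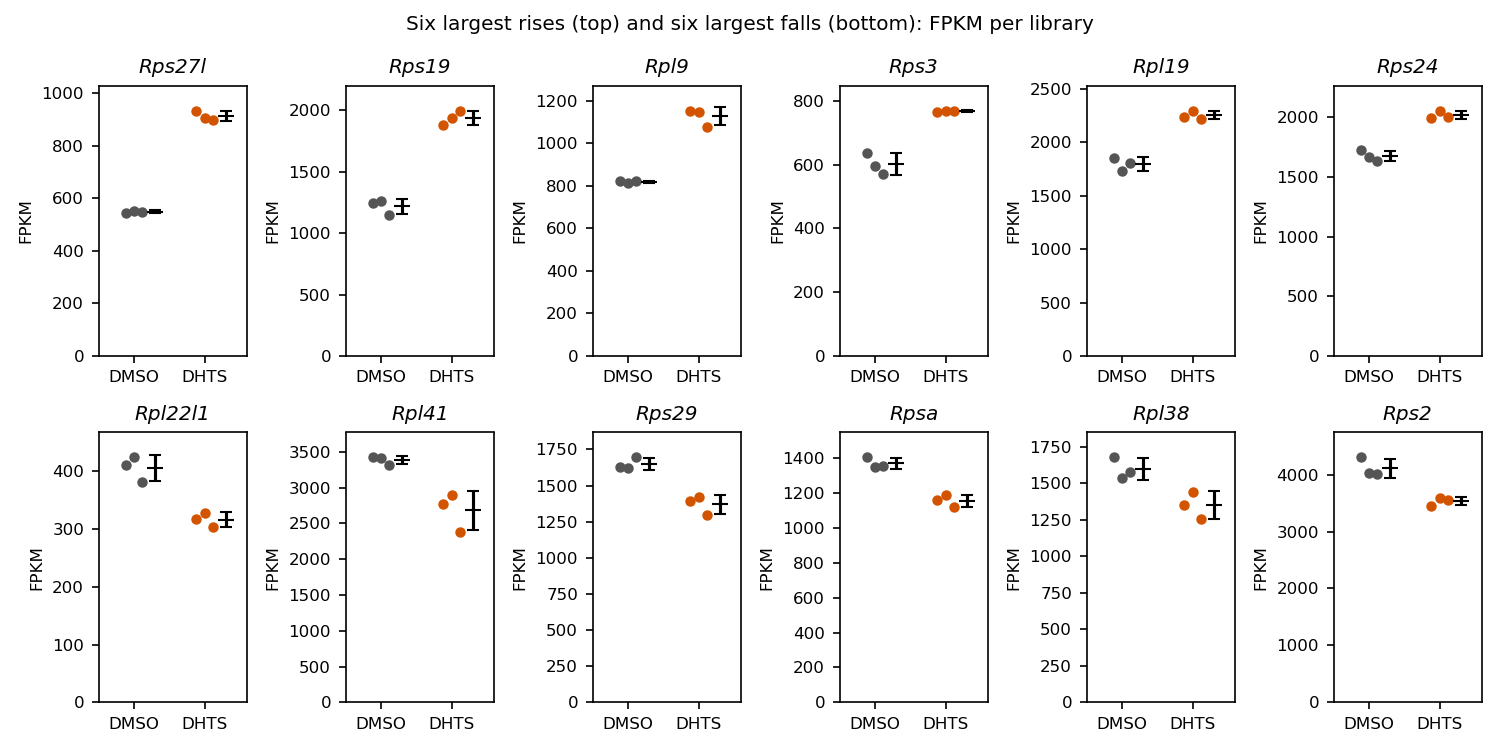
FPKM in each library for the 6 members with the largest rise (top) and the 6 with the largest fall (bottom), with mean ± SD over 3 libraries at the right of each group and axes that start at 0. In all 12 genes the groups do not overlap; the steps are widest in Rps27l and Rps19 and narrow in Rps2 and Rpl38.

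Rises and falls were unevenly spread over annotated transcript length, taken as the median over the main annotated transcripts of each gene. Of 6 members with an annotated transcript of at most 400 bases, 2 fell and 0 rose, with a median log2 fold change of −0.15. Among the 17 other genes of that length 4 fell and 0 rose, with a median of −0.41. From 400 to 500 bases, 3 of 6 members rose and 0 fell with a median of 0.12, while among 49 other genes 3 rose and 18 fell with a median of −0.22. From 500 to 700 bases, 3 of 18 members rose and 3 fell, with a median of 0.03 against −0.03 in 170 other genes. Members of 700 to 1000 bases rose in 14 of 24 cases and fell in 0, with a median of 0.11; in 465 other genes 128 rose and 125 fell. From 1000 to 2000 bases, 13 of 20 members rose and 3 fell, with a median of 0.16 against 0.03 in 2451 other genes. Above 2000 bases, 2 of 5 members rose and 0 fell, with a median of 0.15 against 0.04 in 7919 other genes. Across the 79 members Spearman's rho between fold change and length was 0.27, a description over genes that share the same 6 libraries. The annotated length is not always the length behind the FPKM, so some members may stand in the wrong range. In DMSO replicate 1, Rps15a (5130 bases) had 3137 fragments at 504.9 FPKM. Rpl31 (630 bases) had 5113 fragments at 625.5 FPKM in the same library. The part of transcript length in the results was not tested.

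**Figure D3:**
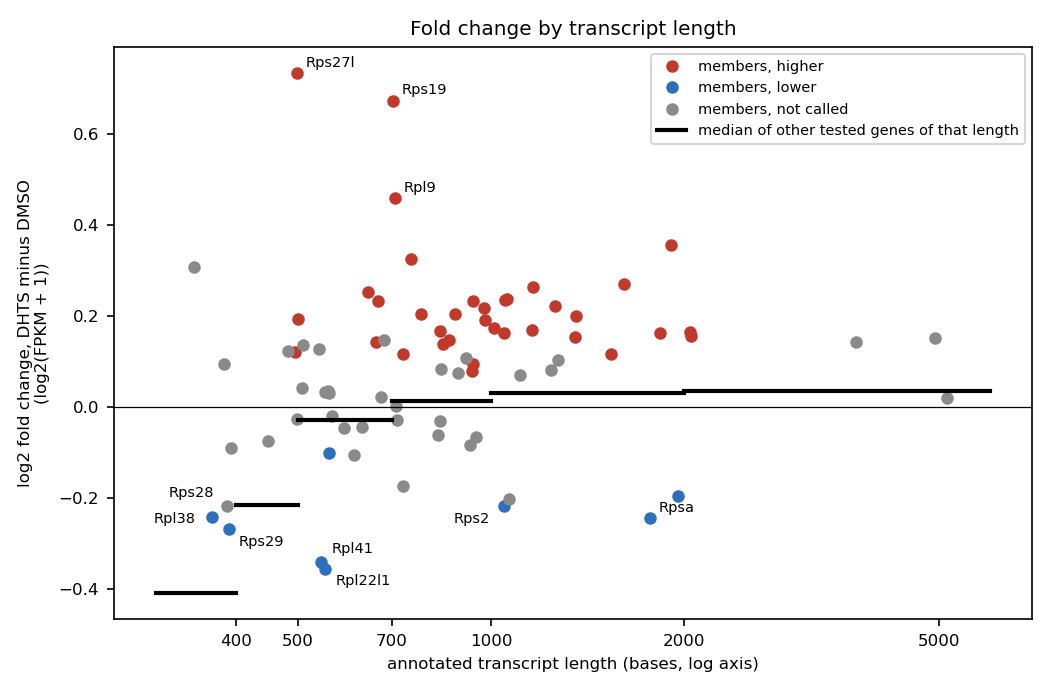
Log2 fold change of each of the 79 members against its annotated transcript length in bases (log axis); black bars are the medians of the other tested genes in each length range. The other genes' medians rise from −0.41 at up to 400 bases to 0.04 above 2000 bases, while Rps27l, Rps19 and Rpl9 sit far above the bars of their length and Rps2 and Rpsa below theirs.

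Paralogs of canonical ribosomal protein genes are usually tissue-restricted, and 6 are members. Rpl3l, Rpl10l and Rpl39l, known from muscle (Rpl3l) and testis (Rpl10l and Rpl39l), were listed at 0 FPKM in all 6 libraries. Of the 3 tested paralogs, Rps27l rose and Rpl22l1 and Rpl7l1 fell. Rpl7l1 had 79.21, 80.85 and 80.19 FPKM with DMSO and 72.03, 69.14 and 68.14 FPKM with DHTS, a log2 fold change of −0.20 (SE 0.04, limma adjusted p = 0.00402). The parent genes Rpl22, Rpl7 and Rpl3 rose.

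In 2 of these pairs the paralog and its parent moved in opposite directions. Rpl22, whose protein is known in mouse to repress Rpl22l1, had 842.1, 769.6 and 824.3 FPKM with DMSO and 903.9, 907.2 and 899.5 FPKM with DHTS. The groups did not overlap, with a log2 fold change of 0.15 (SE 0.04, limma adjusted p = 0.0109), but its fragments are fractional, and on the scaled fragments it did not pass (limma adjusted p = 0.0814). The ratio of Rpl22l1 to Rpl22 was 0.487, 0.551 and 0.461 with DMSO and 0.351, 0.361 and 0.337 with DHTS. This ratio is free of the scaling between libraries, and its mean difference on the log2 scale was −0.51.

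Rpl7 had 708.1, 696.7 and 714.4 FPKM with DMSO and 844.8, 852.6 and 845.6 FPKM with DHTS, a log2 fold change of 0.26 (SE 0.02, limma adjusted p = 9.88e-05). The ratio of Rpl7l1 to Rpl7 was 0.112, 0.116 and 0.112 with DMSO and 0.0853, 0.0811 and 0.0806 with DHTS, a log2 difference of −0.46. In both pairs the 3 DHTS ratios lay below the 3 DMSO ratios. This follows from the levels, since in both pairs the paralog fell and the parent rose without overlap. The exact two-sided permutation test could therefore only give p = 0.1, the smallest p that 3 against 3 libraries allow. It adds nothing to the calls of the single genes. The ratio of Rps27l to Rps27 overlapped between the groups (8.61 to 16.6 with DMSO and 12.3 to 21.6 with DHTS, exact permutation p = 0.4), since Rps27 itself was poorly measured.

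Rps27 had 52.40, 33.40 and 63.76 FPKM with DMSO and 75.82, 67.89 and 41.65 FPKM with DHTS, from fractional estimates of 3.0 to 8.4 fragments per library. Its log2 fold change was 0.31 with a 95% interval from −0.37 to 0.99 (limma adjusted p = 0.408), the widest interval of the 79 members. Rpl3, the parent of Rpl3l and a protein of the peptidyl transferase region, had 379.2, 378.7 and 377.6 FPKM with DMSO and 442.4, 436.3 and 386.0 FPKM with DHTS. It rose by 0.15 (SE 0.05, limma adjusted p = 0.0475), the least secure call among the named members, with adjusted p from 0.00165 to 0.17 over the alternatives. Rpl39, the parent of Rpl39l and part of the exit tunnel, had 451.9, 455.2 and 439.5 FPKM with DMSO and 423.3, 446.8 and 383.6 FPKM with DHTS. The groups overlapped, with a log2 fold change of −0.11 (interval −0.24 to 0.03, limma adjusted p = 0.153). It passed on scaled fragments (limma adjusted p = 0.0368) and without DHTS replicate 2 (0.0454).

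Rpl10, the parent of Rpl10l and one of the last proteins to join the large subunit, had 978.1, 921.8 and 918.5 FPKM with DMSO and 886.4, 914.1 and 899.6 FPKM with DHTS. The DHTS libraries were all lower by a small margin, with a log2 fold change of −0.06 that did not pass the test (limma adjusted p = 0.154). It passed with median-ratio scaling and on scaled fragments, and its direction turned with quantile normalization. Rps4x, the X-linked form of a small-subunit protein, had 730.7, 740.2 and 732.5 FPKM with DMSO and 862.0, 870.2 and 831.3 FPKM with DHTS, a log2 fold change of 0.22 (SE 0.03, limma adjusted p = 0.000504).

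Among 16 members that form the 5S ribonucleoprotein or whose products bind MDM2, 6 rose and 0 fell, with a median log2 fold change of 0.14. The share that passed in either direction was 37.5%, against 50.1% of all tested genes, of which 28.2% rose. Of the pair best known for this role, Rpl5 passed the test and Rpl11 did not. Rpl5 had 682.9, 689.8 and 635.5 FPKM with DMSO and 744.8, 754.3 and 752.0 FPKM with DHTS, a log2 fold change of 0.17 (SE 0.04, limma adjusted p = 0.00757). Rpl11 had 1037, 1036 and 1009 FPKM with DMSO and 1014, 1037 and 963.8 FPKM with DHTS. Its groups overlapped, with a log2 fold change of −0.03 and an interval from −0.11 to 0.05 (limma adjusted p = 0.455). The difference between Rpl5 and Rpl11 was not tested.

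Rpl23, whose product also binds MDM2, had 636.6, 642.9 and 611.1 FPKM with DMSO and 747.6, 774.4 and 706.5 FPKM with DHTS, a log2 fold change of 0.24 (SE 0.04, limma adjusted p = 0.0025). Rps7 had 261.1, 242.2 and 261.4 FPKM with DMSO and 265.2, 273.6 and 266.4 FPKM with DHTS. Its groups did not overlap but the difference was small (log2 0.07, interval −0.02 to 0.17, limma adjusted p = 0.145). With quantile normalization it was 0.14 and passed (limma adjusted p = 0.00812). Rpl26, known to bind the p53 messenger RNA in human cells, had 58.63, 38.24 and 56.23 FPKM with DMSO and 42.81, 48.59 and 58.14 FPKM with DHTS, with full overlap and an interval from −0.44 to 0.40.

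Larger fold changes were found among the partners of that pathway. Of 10 genes for 5S ribonucleoprotein assembly, MDM2 and p53, 6 rose and 3 fell, against 28.2% and 21.9% of all tested genes. Their median log2 fold change was 0.49. Cdkn1a, the cell cycle inhibitor induced by p53, had 61.49, 58.5 and 65.86 FPKM with DMSO and 485.6, 487.3 and 484.6 FPKM with DHTS, a log2 fold change of 2.95 (SE 0.05, limma adjusted p = 3.52e-08). Mdm2, both a target and the ubiquitin ligase of p53, had 54.16, 69.08 and 60.46 FPKM with DMSO and 360.7, 353.7 and 364.2 FPKM with DHTS, a log2 fold change of 2.54 (SE 0.08, limma adjusted p = 7.86e-07). All DHTS libraries of both genes were far above the DMSO libraries. Gtf3a, the transcription factor for 5S RNA, rose by 0.86 and Trp53, which encodes p53, by 0.68. The 3 genes that fell were Rrs1 (−0.28), Sdad1 (−0.22) and Rpf2 (−0.17); Rrs1 and Rpf2 carry the 5S particle into the large subunit.

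Of 19 members linked to Diamond-Blackfan anaemia in humans, 7 rose and 1 (Rps29) fell, with a median log2 fold change of 0.12. The share that passed was 42.1%, again against 50.1% of all tested genes. The P stalk, which recruits elongation factors, is formed by Rplp0, Rplp1, Rplp2 and their neighbour Rpl12. Of these 4 genes 1 rose and 0 fell, against 28.2% and 21.9% of all tested genes. Rplp0 had 2053, 2050 and 2044 FPKM with DMSO and 2331, 2384 and 2351 FPKM with DHTS, a log2 fold change of 0.20 (SE 0.02, limma adjusted p = 0.0002). It is often used as a reference gene in quantitative PCR, and its groups were clearly apart. Rplp1 had 4741, 4218 and 4573 FPKM with DMSO and 4529, 4350 and 4381 FPKM with DHTS, with overlap and a log2 fold change of −0.03 (limma adjusted p = 0.63). Rplp2 had 822.9, 814.1 and 793.1 FPKM with DMSO and 802.6, 815.9 and 693.2 FPKM with DHTS, also with overlap (log2 −0.08, limma adjusted p = 0.344). The direction of Rplp1 turned with quantile normalization, and on scaled fragments it was lower and passed (log2 −0.08, limma adjusted p = 0.0155). The direction of Rplp2 turned on scaled fragments.

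Rps6, the small-subunit protein that S6 kinases phosphorylate, had 974.0, 954.3 and 957.6 FPKM with DMSO and 1085, 1138 and 1101 FPKM with DHTS. The groups were apart, with a log2 fold change of 0.20 (SE 0.03, limma adjusted p = 0.000725). Fau and Rps27a encode small-subunit proteins that are made as a fusion, with a ubiquitin-like domain in Fau and with ubiquitin in Rps27a, and neither passed the test. Fau had 2025, 1839 and 1896 FPKM with DMSO and 1984, 2038 and 1904 FPKM with DHTS, with overlap (log2 0.04, limma adjusted p = 0.445). Rps27a had 413.5, 331.4 and 312.4 FPKM with DMSO and 342.3, 381.6 and 308.5 FPKM with DHTS, also with overlap (log2 −0.03, limma adjusted p = 0.857). The directions of Fau and Rps27a turned with quantile normalization.

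Rps26 had the highest mean level of the members, with 6048, 5176 and 5747 FPKM with DMSO and 6268, 6191 and 6279 FPKM with DHTS. The DHTS libraries were all higher, but the log2 fold change of 0.15 did not pass the test (interval 0.02 to 0.27, limma adjusted p = 0.0569). It did with the replicate block (limma adjusted p = 0.0454), on scaled fragments (0.0152) and without DMSO replicate 1 (0.0143), and with quantile normalization its direction turned. Rplp1 and Rps2 followed in level. At the other end, 5 tested members had a mean below 100 FPKM: Rpl21, Rpl24, Rpl26, Rps27 and Rpl7l1. The canonical genes among them are needed by every dividing cell, so their low values may not be their true levels.

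The entry named Rpl24 had 8.28, 8.599 and 8.734 FPKM with DMSO and 9.495, 9.157 and 10.15 FPKM with DHTS, from 393 to 527 fragments. Its gene identifier is annotated to chr16:55973883-56008913, with a transcript of 4920 bases. The RefSeq start of Rpl24, at chr16:55966275, lies outside that region. The entry may therefore hold the values of another gene, and it stays in the counts of members. Rpl21 had 10.91, 5.347 and 12.23 FPKM with DMSO and 7.526, 7.397 and 8.172 FPKM with DHTS from 37 to 74 fragments, with overlap. Neither passed the test. Rpl29 was listed at 0 in 5 libraries and at 0.409 FPKM in DHTS replicate 2, and was not tested. Rps12-ps3, left out for its symbol although the annotation types it as protein-coding, was listed at a mean of 1697.45 FPKM, above most members.

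Rpl13, on chromosome 8, had 1214, 1200.0 and 1196 FPKM with DHTS, whereas every DMSO library lists it at 0. It lies in a run of 75 genes that were all listed at 0 in every DMSO library. No fold change is given for it, and it was left out of all sums.

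The 83 members other than Rpl13, with the 4 that were not tested among them, were summed. They made up 16.024%, 15.622% and 15.712% of the summed FPKM with DMSO and 16.63%, 16.884% and 16.308% with DHTS. The groups did not overlap, with 15.8% ± 0.211 against 16.6% ± 0.289 (SD, n = 3), a difference of 0.821 percentage points. As a share of estimated fragments, which does not correct for transcript length, the values were 4.325%, 4.225% and 4.143% with DMSO and 4.445%, 4.55% and 4.295% with DHTS. Here the groups overlapped, with 4.23% ± 0.091 against 4.43% ± 0.128.

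Other messenger RNAs known to carry a TOP tract had the same median fold change, rounded, as the ribosomal protein genes. Of 24 such genes, 13 rose and 1 fell, against 28.2% and 21.9% of all tested genes, with a median log2 fold change of 0.12. Pabpc1, the cytoplasmic poly(A)-binding protein, had 445.9, 418.8 and 425.8 FPKM with DMSO and 901.5, 902.9 and 930.3 FPKM with DHTS, a log2 fold change of 1.08 (SE 0.03, limma adjusted p = 5.68e-07). The elongation factor Eef2 rose by 0.55, Gnb2l1 (RACK1, a protein of the small subunit with another family's name) by 0.47 and the chaperonin subunit Cct4 by 0.46. The gene that fell was Vim (−0.30), an intermediate filament gene.

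Genes that regulate TOP messenger RNAs and ribosomal protein output more often fell than rose. Of 17, 2 rose and 7 fell, against 28.2% and 21.9% of all tested genes, with a median log2 fold change of −0.09 against 0.03. Larp4, which binds poly(A) tails, had 51.63, 51.27 and 52.41 FPKM with DMSO and 36.27, 34.61 and 37.95 FPKM with DHTS, a log2 fold change of −0.50 (SE 0.05, limma adjusted p = 0.000141). Eif4ebp1, the translation repressor inactivated by mTOR, fell by 0.50, the S6 kinase gene Rps6kb1 by 0.49 and Myc, a driver of ribosome production, by 0.48. The 2 that rose were outside the rule for named genes and were singled out after their values were seen: Tsc1 (0.38) and Tsc2 (0.21), which encode the inhibitor of mTOR complex 1. Also outside that rule, Larp1 fell by 0.20 (limma adjusted p = 0.0058). Mtor (−0.06), Rptor (0.16) and Rheb (0.02) did not pass the test. The part of the mTOR pathway in the results was not tested.

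Of 10 tested chaperones and importers of ribosomal proteins, 1 rose and 5 fell, against 28.2% and 21.9% of all tested genes, with a median log2 fold change of −0.07. Pdcd2, a chaperone of the Rps2 protein, rose by 0.52, while Ipo5 fell by 0.38, Grwd1, whose yeast counterpart escorts the Rpl3 protein, by 0.37 and Ltv1, a small-subunit assembly factor, by 0.29. Of 14 genes for ribosome rescue and quality control, 3 rose and 2 fell, against the same shares, with a median of −0.00. The 76 mitochondrial ribosomal protein genes were split evenly, with 17 higher and 17 lower and a median of −0.00. That is 22.4% each way, against 28.2% and 21.9% of all tested genes. The differences between these lists and the cytosolic ribosomal protein genes were not tested.

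**Figure D4:**
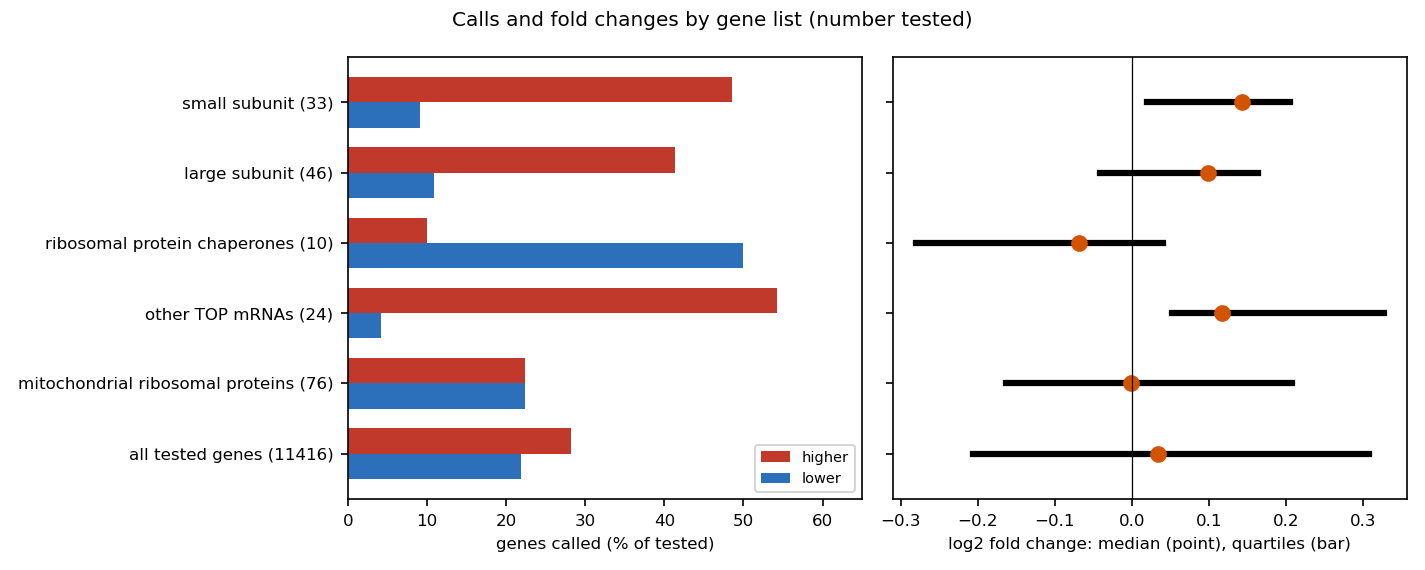
Left, percent of tested genes called higher or lower with DHTS in each list (number tested in brackets); right, median log2 fold change with quartiles. Higher calls outnumber lower ones in both subunits and in the other TOP messenger RNAs. The chaperones lean lower, and the mitochondrial list is even at 17 and 17 of 76. Over all tested genes 28.2% were higher and 21.9% lower.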

How the data were processed

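Per the labels' protocols, 3 µg of total RNA per sample taken with TRIzol went into NEBNext Ultra libraries sequenced on an Illumina HiSeq. The submitters' processing notes name the mm10 build and the tools Cuffdiff 2.2.1, Cufflinks, HISAT2 2.0.4 and fastp 0.20.0. Their settings and the annotation are not given in the sources used. The deposited values are FPKM per gene and library, which the authors scaled by transcript length and depth. A second deposited block, headed as counts, holds a signal: estimated fragments divided by 1 factor per library. After each factor was estimated, 92.7% to 93.0% of nonzero values came within 0.1 of whole fragments. Because 1525 tested genes (13.4%) held fractions, no count model was fitted.

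Genes with a mean of at least 1 FPKM entered limma 3.58.1 (R 4.3.3) on log2(FPKM + 1), with the trend and robust options and treatment as the only term; 11416 genes were tested, and p-values were adjusted over all of them. The pseudocount of 1 understates changes of low genes. The fit was tested on simulated data. SE is limma's moderated standard error and SD is over 3 libraries. The members, lists and rules were chosen with earlier results of these data known. Members given library by library are the 6 with the largest rise and fall among those past the threshold, those with a set role, and the 3 highest and 3 lowest in level; of other lists, up to 4 called genes with the largest fold change. Gene coordinates are from GENCODE vM21 and promoters from RefSeq (GRCm38.p6). The alternatives were another pseudocount, other filters, 2 scalings, limma without its options, scaled fragments, removal of fractional or chromosome 8 genes, omission of each library in turn, and a replicate block.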

Additional observations from a re-analysis of the deposited data

How the results depend on the processing

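Of the 43 members called, 30 were called in every alternative (24 higher, 6 lower), and 1 (Rpl23a) changed sign, with quantile normalization. The members' lower count became 14 on scaled fragments, and their median log2 fold change 0.073 with median-ratio scaling and 0.076 on scaled fragments. The rise in share of 0.821 percentage points became 0.199 on scaled fragments and 1.22 without genes with fractional fragments. The cause was not tested. Leaving out 1 library at a time gave 28 to 36 higher, 8 to 11 lower, a median of 0.08 to 0.12, a share difference of 0.683 to 0.971 points and 5055 to 5206 calls over all genes. The replicate numbers did not pair the samples: same-numbered deviations correlated at −0.045, 0.063 and 0.012, and 1 of 3 DMSO libraries correlated best with its own number. With the replicate block, 32 members rose and 8 fell, their median was 0.12 and there were 5437 calls over all genes against 5720. Among members described library by library under the rule for named genes, these changed sign, and none of them was called with the main settings. With quantile normalization Rplp1 went to 0.014, Fau to −0.052, Rps27a to 0.069, Rpl10 to 0.0012 and Rps26 to −0.036. Leaving out 1 library at a time gave −0.21 to 0.091 for Rpl26, −0.075 to 0.0089 for Rplp1 and −0.11 to 0.091 for Rps27a. Rplp2 went to 0.0057 on scaled fragments and Fau to −0.0014 with median-ratio scaling. Other members that were not called, such as Rpl30, Rpl32 and Rpl27, also changed sign. Few fragments stand behind Rps27, Rpl21 and Rpl29, and the reason was not tested.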

Other observations

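Members were also compared by what their promoters hold, as values with no test. Over all tested genes 28.2% rose and 21.9% fell. Of the 14 tested members with a pyrimidine tract at the annotated start, 5 rose and 1 fell, with a median log2 fold change of 0.09. Of the 46 with a promoter and no such tract, 20 rose and 5 fell, with a median of 0.11. Of 41 members with CGGAAG in the window, 11 rose and 4 fell, with a median of 0.08. Of the 19 without it, 14 rose and 2 fell, with a median of 0.16. These splits were chosen after the values were seen.

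Outside the rule for named genes, Rpl30 was singled out after its values were seen, because a library stood apart in each group. It had 207.6, 210.0 and 362.7 FPKM with DMSO and 199.6, 281.8 and 195.5 FPKM with DHTS. DMSO replicate 3 and DHTS replicate 2 were high, the groups overlapped, and the log2 fold change was −0.17 with an interval from −0.74 to 0.40 (limma adjusted p = 0.58). Over the alternatives the fold change of Rpl30 ranged from −0.34 to 0.09, so its direction turned. Rps28, chosen in the same way, was lower in all DHTS libraries, with 613.8, 564.5 and 572.1 FPKM with DMSO and 518.7, 560.1 and 433.6 FPKM with DHTS, and did not pass the test (log2 −0.22, limma adjusted p = 0.0844).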
